A study of Mus musculus with 2 samples.

Results

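The 1835 peaks described here are the TOBF1 ChIP-Seq peaks that lie deepest in the spaces between protein-coding genes. They were chosen by measured values of the authors' peak list, score and position: on chromosomes 1 to 19, a score under 40, and a midpoint outside every protein-coding gene and more than 100 kb from the nearest end of one. They make up 1835 of the 12181 peaks in the list, and 17.4% of the 10574 autosomal peaks with a score under 40 (95% exact binomial interval 16.6 to 18.1%, which covers counting error only). Another 211 peaks in the same space scored 40 or more and are not members. The score is the authors' own value for each peak, taken here for the −log10 of its q-value, and it serves only to rank and filter peaks within this list.

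TOBF1, the protein of A830080D01Rik, was mapped in mouse embryonic stem (ES) cells of strain R1/E, cultured in serum-containing medium with LIF, a cytokine that holds such cells in the undifferentiated state. The cells of both libraries carried TOBF1 tagged in a BAC, a large genomic construct, so the mapped protein is the tagged one and not the product of the cells' own unmodified gene. Chromatin was crosslinked with formaldehyde and DSG. The TOBF1 library was made with an anti-GFP antibody and the input library with none. There is 1 library of each kind, and only the TOBF1 library has a peak list used here, so the values below come without replicate error and without tests. The sequencing depth is unknown from the list.

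A gene desert is a long stretch of a chromosome that holds no protein-coding gene. Such stretches often flank genes for developmental regulators, and distal enhancers, which act on a promoter through looping of the chromatin fibre, can lie within them. They can also hold genes for long noncoding RNAs (lncRNAs), transcripts that are not translated, and microRNAs, short RNAs that pair with messenger RNAs through a seed near their 5′ end. Below, a desert is the part of the space between neighbouring protein-coding genes that is over 100 kb from both, named by those genes, and "member" means a peak of the set of 1835. The label holds for protein-coding genes only. Of the members, 324 (17.7%) lay inside a gene of another type, and 382 (20.8%) were over 100 kb from a gene of any type.

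Few sequences of these regions could be read, because promoter windows from 250 bases before to 50 after a gene's start were the only genomic sequence used (RefSeq, GRCm38.p6, the positions of mm10). Members overlapped 16 such windows, belonging to 15 lncRNA genes and to no gene of another type. The members at these windows scored from 2.16 to 17.1, with a median of 9.54. The windows shown are those with the most bases under a peak, and the pair with a shared run of bases described after them. Capitals mark the bases under the peak, and each window is read 5′ to 3′ along the gene's strand.
Gm42000, chr3:15055845-15056144, plus strand, between Car2 and Gm9733, peak score 16.4: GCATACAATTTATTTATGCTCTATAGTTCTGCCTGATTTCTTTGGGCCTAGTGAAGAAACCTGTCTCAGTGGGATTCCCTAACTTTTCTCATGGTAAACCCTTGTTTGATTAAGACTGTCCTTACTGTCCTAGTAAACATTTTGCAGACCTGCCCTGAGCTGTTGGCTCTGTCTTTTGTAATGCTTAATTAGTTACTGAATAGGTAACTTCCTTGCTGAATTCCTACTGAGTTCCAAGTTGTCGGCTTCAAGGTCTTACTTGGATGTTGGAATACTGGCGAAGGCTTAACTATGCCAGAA
Gm41259, chr15:6044655-6044954, minus strand, between Ptger4 and Dab2, peak score 9.54: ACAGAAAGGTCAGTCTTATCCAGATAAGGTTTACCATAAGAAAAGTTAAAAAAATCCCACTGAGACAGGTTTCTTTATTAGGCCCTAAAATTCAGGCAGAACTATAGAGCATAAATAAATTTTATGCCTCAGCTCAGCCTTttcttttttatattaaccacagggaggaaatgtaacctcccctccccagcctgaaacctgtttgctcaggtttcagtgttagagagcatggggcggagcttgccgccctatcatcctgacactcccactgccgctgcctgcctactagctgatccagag
Gm30214, chr14:53039417-53039716, minus strand, between Gm36448 and Dad1, peak score 13.9: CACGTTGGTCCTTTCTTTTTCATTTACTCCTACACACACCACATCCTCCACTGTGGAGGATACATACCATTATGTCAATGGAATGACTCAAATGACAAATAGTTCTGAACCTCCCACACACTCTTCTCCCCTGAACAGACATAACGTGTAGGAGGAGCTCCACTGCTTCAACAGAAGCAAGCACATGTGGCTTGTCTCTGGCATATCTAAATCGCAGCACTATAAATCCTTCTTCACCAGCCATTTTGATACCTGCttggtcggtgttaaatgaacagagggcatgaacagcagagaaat
Celrr, chr1:121087155-121087454, plus strand, between En1 and Insig2, peak score 9.61: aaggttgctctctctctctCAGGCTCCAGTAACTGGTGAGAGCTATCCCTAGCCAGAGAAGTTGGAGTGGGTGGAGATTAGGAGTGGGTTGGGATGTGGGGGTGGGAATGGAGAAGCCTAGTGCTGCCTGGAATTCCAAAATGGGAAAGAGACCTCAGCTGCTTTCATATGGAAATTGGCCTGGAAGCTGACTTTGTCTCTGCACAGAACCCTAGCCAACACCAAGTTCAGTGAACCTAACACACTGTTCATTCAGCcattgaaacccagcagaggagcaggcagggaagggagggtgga
Gm41331, chr15:60141661-60141960, plus strand, between 4933412E24Rik and Lratd2, peak score 11.1: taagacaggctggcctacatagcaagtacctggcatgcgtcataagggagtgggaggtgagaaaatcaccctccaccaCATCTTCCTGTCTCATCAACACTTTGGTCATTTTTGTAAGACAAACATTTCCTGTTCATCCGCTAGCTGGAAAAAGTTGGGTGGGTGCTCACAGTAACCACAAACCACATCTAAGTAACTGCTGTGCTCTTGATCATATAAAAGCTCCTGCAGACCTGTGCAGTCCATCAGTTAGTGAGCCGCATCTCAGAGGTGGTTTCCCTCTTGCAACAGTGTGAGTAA
Gm33388, chr1:119305493-119305792, plus strand, between Gli2 and Inhbb, peak score 2.16: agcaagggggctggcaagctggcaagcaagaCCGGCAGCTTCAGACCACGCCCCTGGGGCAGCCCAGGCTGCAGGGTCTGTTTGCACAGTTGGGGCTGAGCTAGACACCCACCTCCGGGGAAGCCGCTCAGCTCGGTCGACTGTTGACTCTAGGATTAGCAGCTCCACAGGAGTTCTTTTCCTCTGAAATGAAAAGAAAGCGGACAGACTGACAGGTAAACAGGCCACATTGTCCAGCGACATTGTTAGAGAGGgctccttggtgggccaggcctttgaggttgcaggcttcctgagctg

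The window of Gm42000 lay wholly under its peak, all 300 bases of it. The windows of Gm42000 and Gm41259, on chromosomes 3 and 15, share a run of 30 identical bases on opposite strands, and in both it lies under the peak. In the Gm42000 window the run reads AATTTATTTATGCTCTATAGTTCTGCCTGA, and in the Gm41259 window its reverse complement, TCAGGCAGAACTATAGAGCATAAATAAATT. A further run of 23 bases, AAGAAACCTGTCTCAGTGGGATT in the Gm42000 window and AATCCCACTGAGACAGGTTTCTT in the Gm41259 window, is shared in the same way and also lies under both peaks. Among all 32851 promoter windows, 2 held the longer run and 2 held the shorter. Of the 105 pairs among the 15 genes, 1 pair shared a run of 16 or more bases, and this search was made after the windows had been read. Reads from near-identical stretches cannot always be placed, and how the authors handled them is not given in the sources used here.

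A search for 3 short motifs on both strands gave matches in few of these windows. The octamer ATGCAAAT, the form bound by POU factors such as OCT4, was found in 1.74% of all 32851 promoter windows. Among the 16 windows under members it was found in that of Gm32865 (score 3.71), outside the bases under the peak. The TATA box TATAAA, present in 13.6% of all windows, was found in those of Gm30214, Gm41331, Gm41259 and C330004P14Rik, and under the peak in Gm30214 and Gm41331. The CACCC box CCACACCC, present in 3.56% of all windows, was found in none of the 16. A match describes the letters and does not mark a bound site.

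Peaks were sparser in the deserts than nearer to genes. Desert space came to 657 Mb, or 27.3% of the autosomal space, and held 2.79 peaks per Mb, against 4.40 over all autosomes, a ratio of 0.635. Inside protein-coding genes there were 4.51 peaks per Mb. The first 10 kb outside a gene held 7.43, and the band from 10 to 100 kb held 4.84. Distance is part of the rule that chose the members, so these densities are a description of where the list's peaks lie. Assembly gaps and sequence to which reads cannot be assigned were not removed from the space, and their part in the densities was not tested.

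**Figure D1:**
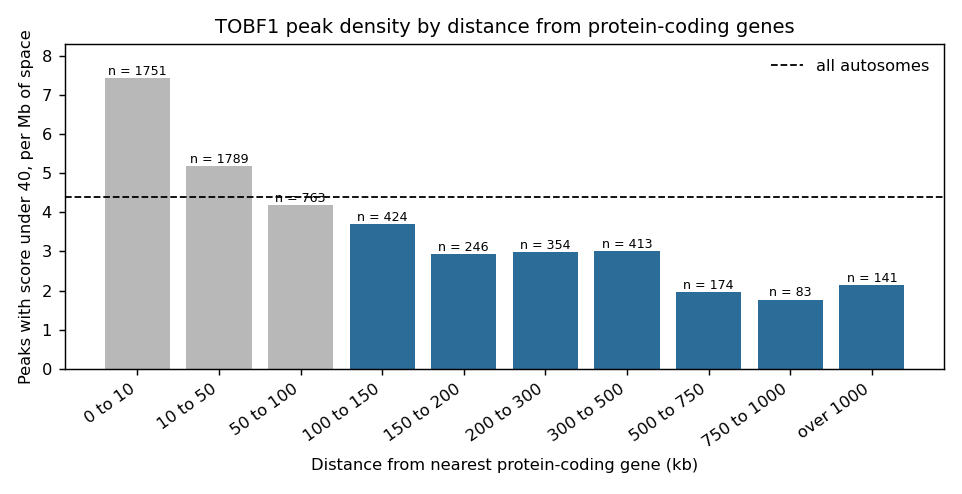
Peaks with a score under 40 per Mb of autosomal space (vertical axis) in bands of distance from the nearest protein-coding gene in kb (horizontal axis), with the number of peaks above each bar; blue bars are the deserts, grey bars nearer space, and the dashed line is the mean over all autosomes, 4.40. Density is highest in the first band, 7.43 per Mb, and is 2.15 per Mb beyond 1000 kb.

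Within the deserts the density was lower farther from genes, though not evenly, in bands of unequal width. It was 3.70 peaks per Mb from 100 to 150 kb (424 members). It was 2.93 from 150 to 200 kb and 2.98 from 200 to 300 kb, and close to these from 300 to 500 kb, a band with 413 members. Groups of closely spaced peaks on chromosomes 9 and 12, described below, lie mostly in that band. From 500 to 750 kb the density was 1.96, from 750 to 1000 kb 1.77, and beyond 1000 kb 2.15 (141 members). The median member lay 269 kb from the nearest protein-coding gene (quartiles 156 and 458 kb).

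The member farthest from any protein-coding gene was at chr14:82466710-82467029, 1977 kb from Pcdh17, a protocadherin, with a score of 33.0. The 4 next farthest were chr18:27728918-27729101 (1974 kb from Celf4, an RNA-binding protein gene, score 11.7), a pair on chromosome 8 at 1915 and 1914 kb from Aga (scores 23.7 and 3.50), and chr18:27660462-27660656 (1906 kb from Celf4, score 9.11). The pair near Aga lies about a kilobase apart, between Tenm3, a synaptic teneurin, and Aga, a lysosomal enzyme gene.

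Scores and widths of the desert members were close to those of other peaks. Their median score was 9.50 (quartiles 5.89 and 16.3), against 8.96 inside genes, 8.61 in the first 10 kb outside, and 9.87 from 10 to 100 kb. Their median width was 207 bp (quartiles 165 and 264), and that of all autosomal peaks under 40 was 207 bp too. Scores were coarse: 1321 members shared their exact score with another member, and the commonest value, 8.27, was given to 40 of them. Of all peaks over 100 kb from genes, 10.3% scored 40 or more and were set aside by the rule. The share was 8.12% inside genes, 6.56% in the first 10 kb and 8.76% from 10 to 100 kb.

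The members with the highest scores, which the score limit chose, lay on several chromosomes, and among the 12 highest chromosome 6 had the most. The highest, 39.98, was at chr1:148481317-148481584, between Brinp3 and Pla2g4a, 1348 kb from the latter. The next was at chr15:46087352-46087599 between Kcnv1 and Csmd3 (39.8). A pair lay in 1 desert of chromosome 6, between the telomere protein gene Pot1a and Grm8, a metabotropic glutamate receptor gene, with scores of 39.8 and 39.4. Others among the 12 highest lay between Ednra and Ttc29 (39.5), Plekhb2 and Hs6st1 (39.3), and Il7 and Stmn2 (38.6). Also on chromosome 6 were those between Mdfic and Tfec (39.2) and between Tpra1 and Plxna1 (38.5). The 3 with the same score of 38.9 lay between Triqk and Runx1t1, Cyp7b1 and Armc1, and Shisa9 and LOC108167340, each inside an lncRNA gene (Gm11820, Gm30789 and Gm45919).

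Values on each side of the limits were close. Just inside the score limit were members at 39.79, 39.80 and 39.98, and just outside it, in deserts, peaks at 40.2, 40.2 and 40.4, near Arrdc3, Sqor and Adcy8. Just inside the distance limit were members 100.04 kb from Zfp648, 100.15 kb from Dpp6 and 100.19 kb from Ext1. Just outside it were peaks 99.7 kb from Cdh20, 99.86 kb from Pabpc2 and 99.89 kb from Zeb1.

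The members were spread over many deserts. Of 1389 deserts, 676 held a member and 713 held none. A single member was found in 287, from 2 to 4 in 291, and 5 or more in 98, which together held 779 members. Deserts with a member had a median length of 477 kb and those without 92.1 kb. The share with a member was 14.9% of deserts up to 0.1 Mb long, 77.0% of those from 0.5 to 1 Mb and 96.7% of those over 2 Mb. The density went the other way, from 4.15 peaks per Mb in the shortest class to 2.30 in the longest.

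**Figure D2:**
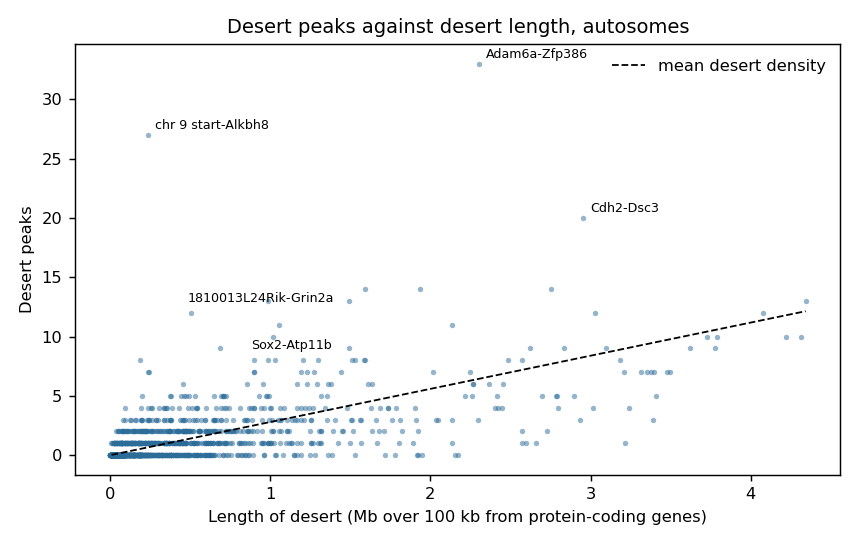
Number of members (vertical axis) against desert length in Mb (horizontal axis), 1 point per desert; the dashed line is the mean density of 2.79 per Mb. The Adam6a-Zfp386 desert (33 members) and the chromosome 9 start (27 members) lie far above the line, and 19 deserts in all hold 10 or more.

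Some long deserts were empty. There were 19 deserts over 1 Mb with no member. The longest lay between Serpinb8, a protease inhibitor gene, and Cdh7, a cadherin gene, on chromosome 1 (2.17 Mb), and it held 1 peak with a score of 40 or more. The next, between Fstl5 and Rapgef2 on chromosome 3 (2.15 Mb), held no peak of either kind.

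The desert with the most members was the variable part of the immunoglobulin heavy chain locus, which is assembled from gene segments by recombination in B cells and is annotated as segments, not as protein-coding genes. This desert, between Adam6a and Zfp386 on chromosome 12, held 33 members in 2.30 Mb (14.3 per Mb) and 168 segment genes. Of the 33 members, 32 lay within 10 kb of a segment, among them Ighv2-6, Ighv8-5 and Ighv9-3, and 16 lay in 1 dense group of 23.1 kb at chr12:115601748-115624868. Their scores were low, with a median of 5.67 and a highest of 11.2. The T-cell receptor alpha locus, between Gm36448 and Dad1 on chromosome 14, held 13 members in 1.49 Mb, 12 of them within 10 kb of one of 132 segment genes, with a median score of 11.7. Segment genes are many in both deserts, and the part of each desert within 10 kb of one was not measured. The counts of 32 and 12 members so near a segment thus have no background beside them. In all deserts, 54 members (2.94%) lay within 10 kb of a segment gene, at 9.08 per Mb of such space against 2.74 elsewhere. Without dense groups the values were 6.39 and 2.66. Of all autosomal peaks under 40, 58 (0.549%) lay so near a segment gene, and since segment genes are not counted as protein-coding, the rule puts 54 of these among the members. Segment genes are near-copies of one another, and whether read placement has a part in these values was not tested.

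The start of the mapped part of chromosome 9 held 27 members within 38.0 kb (chr9:3000145-3038103), before Alkbh8, a tRNA-modifying enzyme gene. Their scores had a median of 2.76 and a highest of 7.18. They form the largest dense group among the members, where a dense group means 6 or more peaks with gaps of at most 10 kb. In all, 67 members (3.65%) lay in dense groups, against 5.58% of all autosomal peaks under 40. Other dense groups lay at the lncRNA gene 1700030C10Rik on chromosome 12 (7 members) and between Lrrc4c and Iftap on chromosome 2 (6 members, median score 1.74). A group between Gm41099 and Gm2244 on chromosome 14 held 6 members in 3.29 kb (median score 3.15). A group between Dsel and Cntnap5a on chromosome 1 held 5 members and 1 peak with a score of 40 or more. Whether read placement or input signal has a part in the dense groups, that of chromosome 9 included, was not tested.

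Among deserts without segment genes or a dense group, that between Cdh2 (N-cadherin) and Dsc3 (a desmosomal cadherin) on chromosome 18 held most, 20 members in 2.95 Mb, with scores from 3.17 to 37.3. Deserts between Vrk2 and Ccdc85a, between Cobl and Pom121l12 (both chromosome 11), and between Nmbr and Cited2 (chromosome 10) held 14 each, at 8.80, 7.24 and 5.09 per Mb. The desert between Pcmtd1 and Sntg1 on chromosome 1 held 13 in 0.986 Mb (13.2 per Mb). Among deserts over 0.5 Mb the highest density was beside Grin2a, an NMDA receptor subunit gene: 12 members in 0.509 Mb on chromosome 16, or 23.6 per Mb, none of them in a dense group. Their scores ran from 4.05 to 23.1, and they lay from 177 to 487 kb below the gene's lower end in coordinate. Those from 418 kb outwards are nearer to 1810013L24Rik, across the desert. The deserts between Cyp7b1 and Armc1 (13.1 per Mb), Akr1e1 and Klf6 (10.5 per Mb) and Igfbp3 and Tns3 (9.84 per Mb) came next after those of Adam6a-Zfp386 and Pcmtd1-Sntg1.

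By chromosome, desert density ran from 2.00 peaks per Mb on chromosome 19 to 4.49 on chromosome 9. On 18 of the 19 autosomes the deserts were sparser than the whole chromosome, and on chromosome 9 the ratio was 1.01. Without the dense groups chromosome 9 had 3.45 desert peaks per Mb and chromosome 12 had 2.56, in place of 3.10. Chromosome 13 had the highest density over the whole chromosome, 6.43 per Mb, and 3.54 in its deserts.

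**Figure D3:**
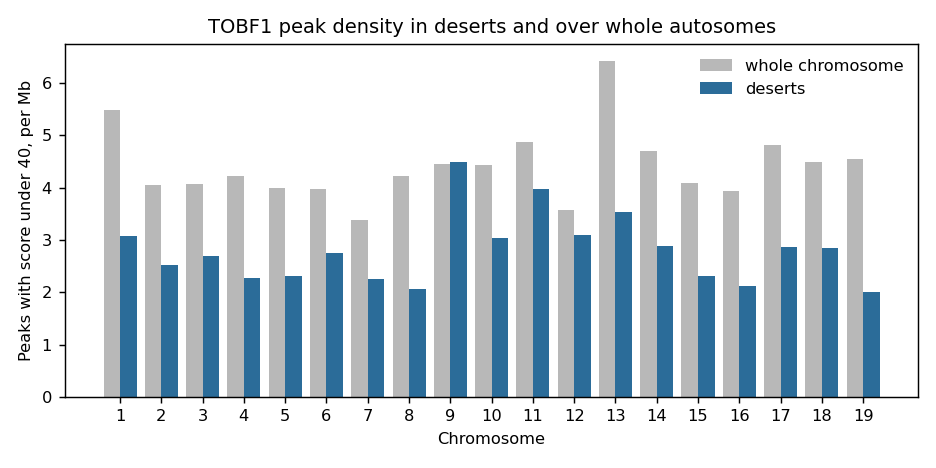
Peaks with a score under 40 per Mb (vertical axis) on each autosome (horizontal axis), in deserts (blue) and over the whole chromosome (grey). The blue bar is the lower on each chromosome but 9, where 27 members lie in 1 dense group.

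Desert members stood alone more often than peaks nearer to genes. Another peak of any score lay within 10 kb of 476 members, or 25.9% (95% exact interval 23.9 to 28.0%), against 31.1% of all autosomal peaks under 40, 41.0% in the first 10 kb outside genes and 31.0% from 10 to 100 kb. Inside genes the share was 29.4%. Within the deserts it ran from 19.5% at 150 to 200 kb to 31.7% at 300 to 500 kb and 31.9% beyond 1000 kb. No correction for the lower density of peaks in deserts was made. Joined at gaps of up to 10 kb, the members fell into 1571 runs: 1399 members stood alone, 135 runs held 2 and 37 held 3 or more (166 members). Members with a neighbour had a median score of 8.13, and those without 9.97.

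Genes of the pluripotency network, the regulators that hold ES cells undifferentiated, flanked deserts in 17 of 46 cases. Of those 17 genes, 11 flanked a desert that held a member, or 64.7%, where the same share over all 2356 genes that flank a desert was 50.9%. Deserts beside these genes held 53 members in 11.9 Mb, 4.46 per Mb, against 2.79 over all deserts. Here and below, a gene is given the members of every desert it flanks, though the gene across the desert can be nearer to them. The list was drawn up with earlier results of these data known, and its median desert was longer (0.430 Mb) than that of all flanking genes (0.220 Mb). The 6 without a member were Dppa4, Lifr, Otx2, Tcl1, Tet2 and Zfp42, of which Tet2, a DNA demethylation enzyme gene, had the most desert space, 0.491 Mb.

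Sox2, a core transcription factor of pluripotency, had 8 members, all above it on chromosome 3, in the desert towards Atp11b. A group of 3 lay 104 to 109 kb from the gene (chr3:34756809-34761464) with scores of 7.74, 17.6 and 8.13. Farther out, members lay at 481 kb (6.12) and 501 kb (13.6). A pair followed at 765 and 766 kb (18.6 and 31.4), of which the second was the highest of the 8, and the last lay at 978 kb (11.7). Both of the pair and the last member are nearer to Atp11b than to Sox2. The first 3 lie just past the distance limit, and 1 peak on the near side of it, at 93.0 kb and with a score of 11.3, is not a member.

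Mycn, a paralogue of Myc active in ES cells, had 5 members in 0.433 Mb of desert. Below the gene 4 lay from 116 to 152 kb away, with scores of 11.6, 13.4, 8.11 and 10.2 from the nearest to the farthest. Above it 1 lay at 126 kb with a score of 32.0. Myc itself, a growth regulator, had 8 members, all above it on chromosome 15 towards Gsdmc. The nearest 5 lay from 116 to 173 kb away inside Pvt1, an lncRNA gene next to Myc, with scores of 11.1, 14.5, 4.31, 7.25 and 3.68. The other 3 lay 1204, 1637 and 1672 kb away and scored 24.6, 8.27 and 27.1. They are nearer to Gsdmc than to Myc.

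Nr5a2, a nuclear receptor gene of early development, had 8 members in 0.915 Mb of desert, 1 at 104 kb below (4.57) and 7 from 245 to 680 kb above it, with a highest score of 23.0 at 418 kb. Tbx3, a T-box factor gene, had 5 members from 184 to 703 kb below it, with a highest score of 25.4. Jarid2, a Polycomb cofactor gene, had 5 from 171 to 794 kb below it, with a highest score of 17.2. Sall1 had 4 members, Fbxo15 and Id2 3 each, and Klf4 and Klf5 2 each, with highest scores of 25.6 at Klf4 and 32.1 at Klf5. The number of members beside a gene moves with the length of its desert, which ran from 0.433 Mb at Mycn to 2.45 Mb at Myc among the 6 genes with most.

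**Figure D4:**
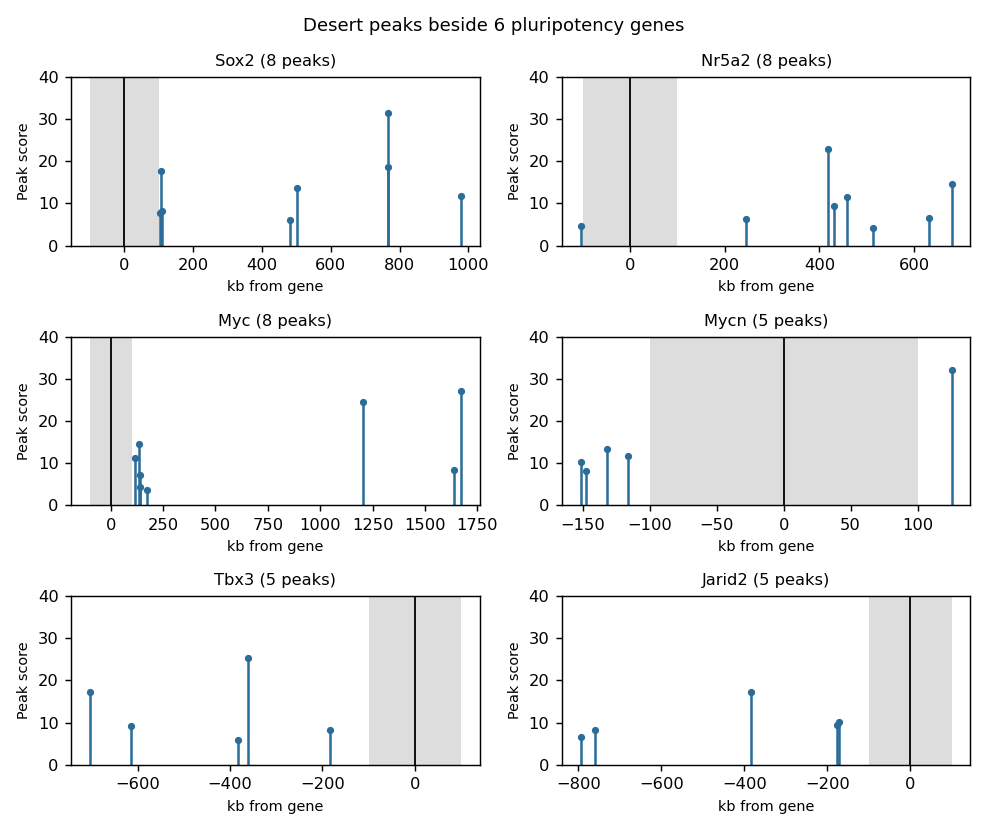
Members beside the 6 pluripotency genes with most of them, 1 panel per gene: score (vertical axis) against distance from the gene in kb (horizontal axis, negative below the gene in coordinate), with grey marking the 100 kb on each side that the rule leaves out. All 8 members beside Sox2 and all 8 beside Myc lie on 1 side, and the highest score shown is 32.0, beside Mycn.

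Of 166 developmental transcription factor genes 115 (69.3%) flanked a desert, beside 2356 of 20558 protein-coding genes (11.5%). Of the 115, 74 (64.3%) flanked a desert with a member, against 50.9% over all flanking genes. Their median desert was longer, 0.356 Mb against 0.220 Mb, and longer deserts hold a member more often. Their deserts held 221 members at 3.03 per Mb, against 2.79 over all deserts. Klf6, a zinc finger factor gene, had 13 members in 1.53 Mb. The highest scored 29.5 at 311 kb below the gene. Meis1, a homeobox gene, had 9 members, 4 below and 5 above, with the 2 highest scores, 23.5 and 24.4, at 401 kb below and 395 kb above. Nr2f1 and Sall3 had 8 members each, and Bcl11a and Dach1 7 each. Those of Bcl11a from 1821 kb outwards are nearer to Fancl. At Nr2f1, a nuclear receptor gene, 3 members lay together from 764 to 766 kb above the gene with scores of 28.0, 12.7 and 3.05.

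Cell adhesion and synapse organiser genes flanked long deserts, with a median of 0.860 Mb, the highest of the 8 lists. In this list 89 of 100 genes flanked a desert. Of those, 71 (79.8%) flanked a member, against 50.9% over all flanking genes, and longer deserts hold a member more often. The density there, 2.05 per Mb, was below the 2.79 over all deserts. Cdh2 had 21 members and Pcdh9, a protocadherin gene, 17 in 6.13 Mb. Cntnap5a, Cntnap5b, Pcdh20 and Pcdh7 had 14 each, and 13 of the members counted for Pcdh20 and Pcdh9 are the same peaks, in the desert between them. Genes of ion channels and neurotransmitter receptors had 2.12 members per Mb. Of 60 that flank a desert, 31 (51.7%) flanked a member, close to the share over all flanking genes. Grin2a (12) and Grik2 (9), both glutamate receptor genes, led that list.

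Signalling genes of development had 2.97 members per Mb, and 31 of 53 (58.5%) flanked a member, against 50.9% over all flanking genes. Tgfbr2, a receptor gene for TGF-beta, had 5 members in 0.197 Mb, from 142 to 287 kb above it. Their scores were 11.6, 5.34, 5.20, 4.25 and 29.7 in order of distance. Those from 252 kb outwards, with the score of 29.7 among them, are nearer to Rbms3. Rspo3, a Wnt-enhancing ligand gene, had 5 in 0.460 Mb, at 320 kb and from 397 to 435 kb above it, the latter nearer to Cenpw. Edil3 had 8, the nearest at 677 kb, and those from 1814 kb outwards are nearer to Cox7c. Acvr2a, an activin receptor gene, had 7, the nearest at 1257 kb, and those from 2269 kb outwards are nearer to Zeb2. Zinc finger genes had 4.65 members per Mb, and 3.61 without dense groups. Zfp386 flanks the immunoglobulin heavy chain desert, which held 33 of the 72 members of this list, 16 of them in a dense group. The value of 3.61 still counts the rest of that desert. Of 23 olfactory and vomeronasal receptor genes that flank a desert, 2 (8.70%) flanked a member, and of 3 defensin genes, 1. The share over all flanking genes was 50.9%. Deserts of these receptor and defensin genes were short, with medians of 0.0354 and 0.0459 Mb against 0.220 Mb over all flanking genes. They held 2.91 and 2.90 members per Mb, against 2.79 over all deserts. All these lists were chosen with earlier results known, and neighbouring list genes can share a desert, so their counts are not independent.

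lncRNA genes lay near some of the members. Of the 1835, 380 (20.7%, 95% exact interval 18.9 to 22.6%) lay within 10 kb of an lncRNA gene. The same share over all autosomal peaks under 40 was 20.7%, and from 10 to 100 kb outside protein-coding genes it was 29.6%. Inside an lncRNA gene lay 244 members (13.3%), against 9.78% of all autosomal peaks under 40, 15.1% of those from 10 to 100 kb outside and 10.8% of desert space. Desert space within 10 kb of an lncRNA gene came to 16.2%, and it held 3.58 members per Mb against 2.64 elsewhere. The median member lay 94.1 kb from the nearest lncRNA gene.

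Beyond 100 kb, the densities near and away from lncRNA genes came closer with distance from protein-coding genes. From 10 to 100 kb out, nearer than any member, they were 5.51 and 4.61. From 100 to 200 kb out, space near an lncRNA gene held 4.48 members per Mb and other space 3.06. From 200 to 500 kb the values were 3.34 and 2.92, and beyond 500 kb they were 2.00 and 1.97. No test was made of these differences. Near pseudogenes there were 3.15 members per Mb against 2.77 elsewhere.

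**Figure D5:**
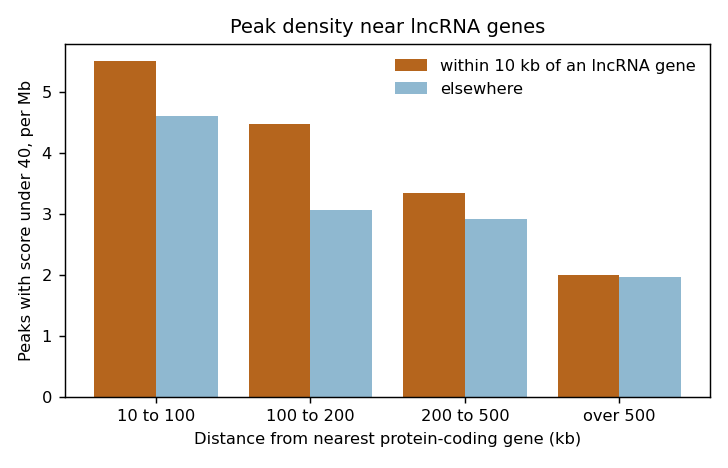
Peaks with a score under 40 per Mb (vertical axis) within 10 kb of an lncRNA gene (orange) and elsewhere (blue), in bands of distance from the nearest protein-coding gene in kb (horizontal axis). The bars stand at 4.48 and 3.06 from 100 to 200 kb and at 2.00 and 1.97 beyond 500 kb.

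At the ends of lncRNA genes, within 1 kb, there were 60 members (3.27%, 95% exact interval 2.50 to 4.19%) at 56 genes, against 3.33% of all autosomal peaks under 40, so the share was close to that background. This part of the deserts held 7.03 members per Mb, and the rest of them 2.74. The highest was at Gm20758 on chromosome 10 (chr10:111854307-111854600, score 36.7), 118 kb from Krr1. It was followed by Gm52716 near Epha7 (35.1), Gm36583 near Nufip1 (32.7), Gm40241 between Rragc and the POU-factor gene Pou3f1 (30.4), 1700121N20Rik (29.8), Gm35333 near Dapk1 (29.2), Gm20139 near the neural factor gene Olig3 (28.7) and Gm35330 near Klf6 (26.1).

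Of 2031 lncRNA genes in desert space, 277 (13.6%) had a member within 10 kb, and 156 had one inside. Those with a member were longer, with a median of 24.99 kb against 11.5 kb for the rest, and a longer gene covers more space in which a peak can fall. The gene with most was 1700030C10Rik on chromosome 12, whose 7 members lie in a dense group and score from 1.46 to 26.2. Next were 5730522E02Rik, an lncRNA gene of 594 kb between Bcl11a and Fancl, with 6 members inside it (highest 34.5 and 33.2), and Gm30382 between the adhesion receptor genes Adgrl2 and Adgrl4, also with 6 (highest 32.6).

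A list of lncRNA genes known from ES cells or development, 57 of which are in the annotation, had 8 that overlap desert space, and 4 of those had a member within 10 kb. Lncenc1, an ES-cell lncRNA gene next to Enc1 on chromosome 13, had 4 members, with scores of 5.52, 15.3, 18.1 and 5.52 from its lower to its upper end, 3 of them inside it. Pvt1 had the 5 described beside Myc. Lncpint had 1 (9.08), outside the gene, and Rmst, an lncRNA gene of neural development, had 1 inside it (6.46). Of the 16 genes of the list named Platr, for pluripotency-associated transcripts, 0 overlap desert space, so the rule leaves little room for members beside them. A peak of any kind lay within 10 kb of 12 of the 16, and of 32 of the 57 genes in the whole list. The share over all lncRNA genes is not given here. Of the 16, 1 gene, Platr22, had a member within 50 kb.

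MicroRNA genes lay within 10 kb of 12 members (0.654%), against 1.22% of all autosomal peaks under 40 and 0.210% of desert space. These are the mature sequences involved, with the seed, bases 2 to 8, in capitals.
miR-101c: aCAGUACUgugauaacuga
miR-6390: gAAUUGAUcaggauguaacca
miR-12204-5p: uUGAGUCUuagaugagug

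The seeds of these 3 microRNAs differ from each other. Mir101c, at chr9:3038680-3038698 for the mature sequence, accounts for 10 of the 12 members, all in the dense group at the start of chromosome 9, with scores from 1.36 to 5.88. Mir6390 on chromosome 14 had 1 member, at 5.08 kb and with a score of 26.1, between Ndfip2 and Spry2, a feedback inhibitor of receptor tyrosine kinase signalling. Gm51286, the gene of miR-12204-5p on chromosome 9, had 1 with a score of 15.0, near the sestrin gene Sesn3. Outside the dense groups, 2 members lay near a microRNA gene.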

How the data were processed

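The data are 1 TOBF1 ChIP-Seq library and 1 input library. The submitters' processing notes name mm10, bedtools, MACS2, Bowtie2 and cutadapt, without settings. For depth, use of the input and repeated reads, the method is not given in the sources used here. Each deposited peak has a position, a name and the authors' score, taken for −log10 of a q-value since the lowest lies just above that of 0.05. Positions are printed from 1.

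Genes came from RefSeq GRCm38.p6 (20558 protein-coding and 12322 lncRNA autosomal genes). In that table, 333 entries of scaffolds listed under chromosome names, 107 of them protein-coding, were left out. Space was counted between neighbouring protein-coding genes, and at chromosome ends to the outermost peak or gene. Distances run from peak midpoints. Promoter and microRNA sequences are RefSeq's. Intervals are exact binomial (Clopper-Pearson, 95%). No test was made, because there is 1 library per group. Genes named were the 12 highest members, the 8 deserts with most members, the 6 densest over 0.5 Mb, the 5 farthest members, 3 members on each side of each limit, lncRNA genes with a member within 1 kb of an end, members within 10 kb of a microRNA, and up to 6 genes per list. Further dense groups, empty deserts, lncRNA genes with most members and the shared runs were chosen after values were seen. Members and lists were chosen with earlier results of these data known. The counting was tested on simulated data. Alternatives were other score and distance limits, windows, gene types and merged peaks. Software was pandas 2.3.3, NumPy 2.4.6, matplotlib 3.10.9 and SciPy 1.17.1 under Python 3.11.15. Some results that these rules take are not reported here.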

Additional observations from a re-analysis of the deposited data

Results flagged for a closer look

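The set is limited to autosomes, and peaks of the same kind outside them were counted only here. On chromosome X, 66 peaks with a score under 40 lay over 100 kb from protein-coding genes, 1.19 per Mb of such space, with a median score of 11.7. On chromosome Y there were 14, or 0.296 per Mb, with a median score of 11.1. A further 169 peaks lay on scaffolds outside the chromosomes, where no distance to a gene was measured. These counts were picked out because they come from data outside the set described, and no input peak list was used here to set beside them.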

How the results depend on the processing

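Of 32 alternatives computed, 18 stayed within the spread used for the value and 14 moved past it. For shares the spread was the exact binomial interval. For counts it was a wide range set around the value and not a measured error. That range was 1223.3 to 2752.5 for members and 799.3 to 1798.5 for genes that flank a desert with a member. Counts of 2598 members and 1759 such genes at 50 kb were thus placed among those that stayed. The count of 1835 members was 889 with scores at or above the list median, 1165 at a distance limit of 200 kb and 382 with genes of every type. The ratio of desert to autosomal density, 0.635, was 0.665 with scores at or above the list median, 0.704 at 50 kb, 0.578 at 200 kb and 0.480 with genes of every type. The share near an lncRNA gene, 20.7%, was 17.6% at 5 kb and 37.7% at 50 kb. All autosomal peaks under 40 had 15.9% at 5 kb, 20.7% at 10 kb and 46.7% at 50 kb, so the members' share was higher at 5 kb and lower at 50 kb. The share with another peak nearby, 25.9%, was 16.3% with peaks within 1 kb merged, 20.5% at 5 kb, 32.6% at 20 kb and 23.1% without dense groups. At 200 kb, 717 genes flanked a desert with a member in place of 1199. Shares in narrower windows and counts of fewer peaks are lower by construction. With fewer peaks the lncRNA share was 22.4% with scores at or above the list median, 21.4% with merged peaks and 21.1% without dense groups. All of these lie within the interval of the reported share, 18.9 to 22.6%, and the share over all autosomal peaks was not recounted for them. Leaving out dense groups and immune receptor segment space, and the flanking genes under other limits, were chosen after seeing the data. No paired analysis was possible because there is 1 library per group. Depth is unknown, so nothing can be said of peaks too weak to be listed.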
